A study of Mus musculus with 32 samples.

Results

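Nuclear pore and mRNA export genes were described in MIN6 cells, a mouse insulinoma line that makes insulin and secretes it in response to glucose. The genes were chosen by symbol: every gene named Nup or Thoc followed by a number, Ndc1, and 14 further pore and export genes named one by one. This gave 42 of 21945 genes in the RNA table and of 21927 in the table of ribosome-protected footprints (RPFs). By their known roles they were placed in a pore scaffold of 16 genes, a channel and basket group of 6, a cytoplasmic face group of 5 and an export factor group of 14, with Nup62cl left without a role. Wild-type cells were kept for 24 hours in medium with 25 mM glucose or with 5.5 mM glucose, with 8 cultures per concentration. These were labelled as 2 batches of 4. Each culture was sequenced both for RPFs and for polyadenylated RNA (32 libraries). All cells were briefly exposed to cycloheximide, which arrests translating ribosomes, and all came from this 1 tumor-derived line, which is usually grown in the higher concentration.

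The nuclear pore complex is a ring of repeated copies of its proteins, the nucleoporins, set into the nuclear envelope. A scaffold of Y-shaped complexes and an inner ring shapes the pore, nucleoporins rich in phenylalanine-glycine repeats fill its channel, a basket reaches into the nucleus and filaments reach into the cytoplasm. For export, the TREX complex is loaded onto an mRNA as it is made, the receptor pair Nxf1-Nxt1 carries the mRNA through the channel, and at the cytoplasmic face the helicase Ddx19, stimulated by Gle1, strips the receptor off. In β cells the insulin mRNA, among the most abundant of the cell, leaves the nucleus through these pores. The RNA level of each gene was compared with its RPFs, which reflect the ribosomes on its mRNA, and the ratio of RPFs to RNA is the translation efficiency (TE).

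An RNA library held 16423766 to 33623502 counts at 25 mM, against 3014785 to 17542565 at 5.5 mM. An RPF library held 363569 to 3283379 counts at 25 mM, against 392529 to 7012999 at 5.5 mM. By batch, an RPF library held 1235662 to 7012999 counts in the first and 363569 to 732164 in the second. The genes described here held 1649 to 16030 of the RPF counts of a 25 mM library and 1964 to 35883 of those of a 5.5 mM library. The 12 β cell markers examined had median levels of at least 10 CPM (counts scaled to a common library size) in both conditions and both library types. Of 20 markers of other cell types, 15 in the 25 mM RNA libraries and 10 in the 5.5 mM RNA libraries stayed under 1 CPM in all 8. In the RPF libraries 11 did at 25 mM and 8 at 5.5 mM. Medians of at least 10 CPM were reached by 3 and 1 of them in RNA and by 4 and 3 in RPFs, at 25 and 5.5 mM. The exception with the highest level was the glucagon gene Gcg, whose RNA ranged from 127 to 234 CPM at 25 mM and from 8.78 to 107 CPM at 5.5 mM. Its part in the results was not tested, and in bulk samples fewer cells of a type and less RNA per cell cannot be told apart. Libraries of 2 kinds stood apart. In 5 RNA libraries at 5.5 mM (replicates 2, 4, 6, 7 and 8) the insulin genes took 0.159% to 1.09% of the counts, against 3.98% to 6.51% in the 25 mM RNA libraries and 4.40% to 8.08% in the other 3 at 5.5 mM, and these 5 were also the shallowest RNA libraries. In the RPF library labelled 25 mM replicate 8 the insulin genes took 13.5% of the counts, against 7.60% to 12.2% in the other 7 at 25 mM and 10.4% to 14.1% at 5.5 mM, and its summed scaffold level, given with the results, was above that of the other 7. The counts of called genes, and the changes of the genes described most fully, are therefore also given without these libraries. The RPF library was set apart partly by levels of genes described here, so leaving it out lowers their 25 mM levels by construction. Fits without it are no independent check of lower scaffold RPFs. Changes are log2 ratios of 25 over 5.5 mM from quasi-likelihood fits in edgeR that held batch as a term, given with the standard error (SE) and a p adjusted over all genes tested.

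At 25 mM, RPFs of 7 of the 38 genes tested were lower and those of 4 were higher (adjusted p under 0.1 by edgeR's quasi-likelihood test). Over all 8709 genes tested, 15.4% were called lower and 15.5% higher. The genes with fewer RPFs were 3 of the inner ring (Nup155, Nup205, Nup188), the membrane nucleoporin Nup210 and 3 export factors (Mcm3ap, Thoc2, Thoc5). Those with more were the Y complex members Nup85 and Nup43, the membrane nucleoporin Pom121 and the TREX subunit Thoc3. The 11 changes had sizes of 0.24 (Nup43) to 0.57 (Thoc3) on the log2 scale. Nup62cl had 0 counts in all 32 libraries, which allows up to 0.0892 to 0.995 CPM in an RNA library and 0.428 to 8.25 CPM in an RPF library (3 counts, counting error only). Nup210l, Nup35 and Ddx19b had too few RPFs for the test.

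**Figure D1:**
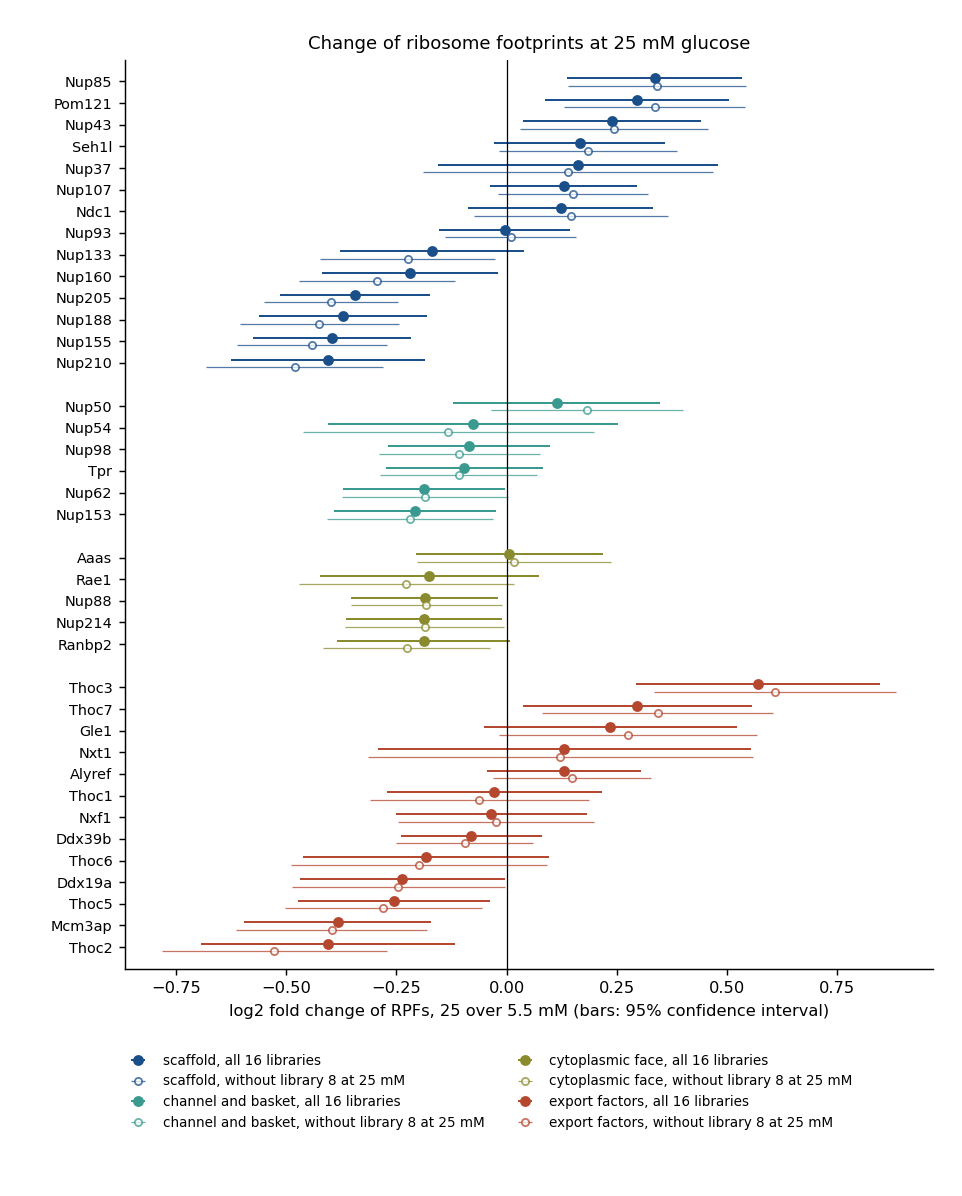
Log2 fold change of RPFs at 25 over 5.5 mM (x axis) for each gene tested, grouped by role, with filled points for the fit to all 16 libraries, open points for the fit without the library labelled 25 mM replicate 8, and bars for 95% confidence intervals taken as normal from the SE. Nup155, Nup205, Nup188 and Nup210 lie between -0.40 and -0.34 with all libraries, and Thoc3 lies highest at 0.57.

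In the inner ring, which lies between the membrane and the channel, RPFs of 3 of the 4 genes tested were lower at 25 mM. Nup205, one of its largest structural proteins, had 247 to 358 CPM (median 261) in the 25 mM RPF libraries, against 291 to 386 CPM (median 349) in those at 5.5 mM, and 7 of the 8 libraries at 25 mM were below every library at 5.5 mM. The eighth was the library labelled 25 mM replicate 8, at 358 CPM. The change was -0.34 (SE 0.09, adjusted p = 0.0048), and -0.40 without that library. Nup155, which joins the inner ring to the membrane, had 157 to 227 CPM (median 166) at 25 mM, against 205 to 271 CPM (median 241) at 5.5 mM. In 6 of 8 libraries it was below every 5.5 mM library, and the change was -0.40 (SE 0.09, adjusted p = 0.0024), and -0.44 without the library labelled 25 mM replicate 8. Nup188, a relative of Nup205, had 110.1 to 179 CPM (median 126) at 25 mM, against 133 to 188 CPM (median 177) at 5.5 mM, so that the groups overlapped. Its change was -0.37 (SE 0.10, adjusted p = 0.0066), and -0.42 without the same library. Nup93, the scaffold partner of both, was not called: its RPFs ranged from 215 to 266 CPM at 25 mM and from 218 to 263 CPM at 5.5 mM, with a log2 change of 0.00 and an interval of -0.15 to 0.14. Within the first batch alone the changes of Nup155, Nup205 and Nup188 were -0.32, -0.35 and -0.38, all called, and within the second -0.47, -0.30 and -0.32, of which that of Nup155 was called. Nup35, a smaller inner ring member, had 33 RPF counts in all at 25 mM and 40 at 5.5 mM. The 4 inner ring genes tested had a median RPF change of -0.36, against -0.01 for all genes tested.

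In the membrane ring, 2 nucleoporins that span the nuclear envelope changed in opposite directions. Nup210 had 115 to 197 RPF CPM (median 134) at 25 mM, against 141 to 226 CPM (median 187) at 5.5 mM, with a change of -0.40 (SE 0.11, adjusted p = 0.010), and of -0.48 without the library labelled 25 mM replicate 8. The groups overlapped, with 4 of 8 libraries at 25 mM below every one at 5.5 mM. Pom121, which recruits other nucleoporins to the membrane, had 101 to 157 CPM (median 116) at 25 mM, against 91.0 to 125 CPM (median 98.6) at 5.5 mM, with a change of 0.30 (SE 0.11, adjusted p = 0.043), and of 0.34 without that library. Most of its libraries overlapped, and the call was lost without replicate 4 (0.22, adjusted p = 0.15) or replicate 7 (0.26, adjusted p = 0.12). Ndc1, a membrane anchor of the pore, had a change of 0.12 (SE 0.11, adjusted p = 0.45).

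The Y complex forms the outer rings of the pore, and its 7 genes were split. Nup85 had 134 to 186 RPF CPM (median 144) at 25 mM, against 81.9 to 137 CPM (median 117) at 5.5 mM, with 6 of 8 libraries at 25 mM above every one at 5.5 mM. Its change was 0.34 (SE 0.10, adjusted p = 0.017), and the same without the library labelled 25 mM replicate 8, with 0.16 (SE 0.11, adjusted p = 0.36) in the first batch alone and 0.64 (SE 0.16, adjusted p = 0.046) in the second. Nup43 had 46.1 to 57.1 CPM at 25 mM, against 38.6 to 47.9 CPM at 5.5 mM, with a change of 0.24 (SE 0.10, adjusted p = 0.093) that was near the threshold and lost its call in 6 of the 8 fits that left out 1 replicate number, at adjusted p = 0.27 without replicate 2. Nup160, which forms an arm of the Y, had 113 to 195 CPM (median 133) at 25 mM, against 143 to 193 CPM (median 157) at 5.5 mM, with 6 libraries at 25 mM below every one at 5.5 mM. Its change of -0.22 (SE 0.10, adjusted p = 0.12) became -0.29 (adjusted p = 0.016) without the library labelled 25 mM replicate 8. In a fit that paired libraries by replicate number it was -0.24 (SE 0.08, adjusted p = 0.041). Nup133 had a change of -0.17 (SE 0.11, adjusted p = 0.27), and Nup107 one of 0.13 (SE 0.09, adjusted p = 0.29).

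**Figure D2:**
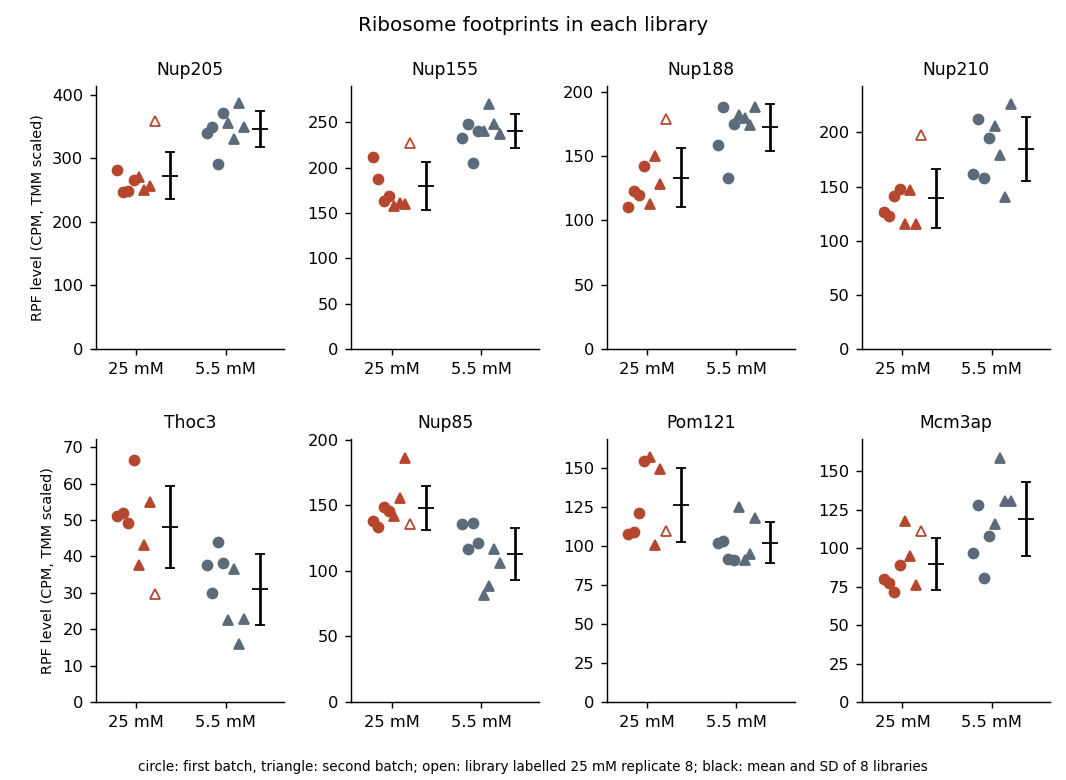
RPF level in CPM after TMM scaling (y axis, from 0) of 8 genes in each library at 25 mM (left) and 5.5 mM (right), with circles for the first batch, triangles for the second, an open symbol for the library labelled 25 mM replicate 8, and black bars for the mean and SD of 8 libraries. In Nup205, Nup155, Nup188 and Nup210 the open symbol is the highest of the 25 mM libraries, and in Thoc3 it is the lowest.

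Among the export factors, the TREX complex held changes in both directions. Thoc3, a subunit of its THO core, had 29.6 to 66.4 RPF CPM (median 50.1) at 25 mM, against 15.9 to 44.0 CPM (median 33.1) at 5.5 mM. In 5 of 8 libraries it was above every library at 5.5 mM, and the change was 0.57 (SE 0.14, adjusted p = 0.0042), and 0.61 without the library labelled 25 mM replicate 8. Thoc2, the large scaffold subunit of the same core, went the other way, with 80.6 to 193 CPM (median 104) at 25 mM, against 101 to 188 CPM (median 167) at 5.5 mM. Its change was -0.41 (SE 0.15, adjusted p = 0.046), and -0.53 (adjusted p = 0.0033) without the library labelled 25 mM replicate 8, which at 193 CPM was the highest of all. The call was lost without replicate 4 (-0.30, adjusted p = 0.17), replicate 5 (-0.37) or replicate 6 (-0.35). Thoc5, an adaptor subunit, was at the threshold (-0.25, SE 0.11, adjusted p = 0.0996) and lost its call in 6 of the 8 fits without 1 replicate number, at adjusted p = 0.34 without replicate 4. The adaptor Alyref (0.13, SE 0.09) and the helicase Ddx39b (-0.08, SE 0.08), which together hand the mRNA to the receptor, were not called, nor was the receptor Nxf1 (-0.03, SE 0.11).

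Mcm3ap, also known as GANP, is the scaffold of TREX-2, the complex that ties transcription sites to the basket of the pore. It had 71.4 to 118 RPF CPM (median 84.5) at 25 mM, against 80.5 to 159 CPM (median 122) at 5.5 mM, with a change of -0.38 (SE 0.11, adjusted p = 0.011). The change was -0.40 without the library labelled 25 mM replicate 8, and -0.36 in the first batch alone and -0.38 in the second alone, called in neither. Without the 5 cultures at 5.5 mM whose RNA library stood apart it was -0.18 (SE 0.14, adjusted p = 0.48). The basket proteins Nup153 (-0.21, adjusted p = 0.11) and Tpr (-0.10, adjusted p = 0.49) and the filament proteins Nup214 (-0.19, adjusted p = 0.14), Nup88 (-0.19, adjusted p = 0.12) and Ranbp2 (-0.19, adjusted p = 0.18) were not called, although all 5 estimates were below 0.

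As classes, the scaffold and the export factors both had a median RPF change near 0. This median change was 0.06 for the 14 scaffold genes tested, with 3 higher and 4 lower, and -0.03 for the 13 export factors, with 1 higher and 3 lower. The difference between the classes was not tested. The summed level of the scaffold was 1789 to 1852 CPM in 7 of the 25 mM RPF libraries and 2135 CPM in the library labelled 25 mM replicate 8, against 1890 to 2121 CPM at 5.5 mM. The summed level of the export factors was 925 to 1145 CPM at 25 mM, against 959 to 1213 CPM at 5.5 mM, which overlapped. Without the library labelled 25 mM replicate 8, RPFs of 10 of 39 genes were lower and those of 6 higher, with a background of 17.0% and 17.6%. When the RPF libraries of the 5 cultures at 5.5 mM whose RNA library stood apart were left out, 0 of 39 genes were called in either direction by edgeR (4 lower and 1 higher at an unadjusted p under 0.05; no other tool was run on these libraries), where the background was 4.75% lower and 6.27% higher. The changes of Nup155, Nup205, Nup188 and Nup210 were then -0.32, -0.29, -0.28 and -0.33, that of Thoc2 was -0.47, that of Mcm3ap -0.18 and that of Thoc5 -0.20, and those of Thoc3, Nup85, Pom121 and Nup43 were 0.46, 0.27, 0.24 and 0.22. The first batch alone gave 5 lower and 2 higher of 39 genes, with a background of 9.39% and 11.1%, and the second 1 lower and 1 higher of 36, with a background of 1.39% and 2.92%. RPF libraries of the second batch were all shallower than those of the first, so calls by batch were made at unlike depth. Scaling by library size, which moved the median of all genes by less than 0.1, gave 12 lower and 3 higher, with a background of 18.3% and 13.5%.

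The RPF change of a nucleoporin tended to follow the number in its name, which is a nominal protein mass in kDa. This pattern was chosen after the values had been seen. All 7 nucleoporins with a number over 150 had a negative RPF change, with a median of -0.34, while 3 of 7 under 90 were negative, with a median of 0.11. Over all genes tested, 51.1% were negative. Of the 4 from 90 to 150, 3 were negative, with a median of -0.04. Across the 18 numbered nucleoporins tested, Pearson's r between the log2 of the number and the change was -0.74. Only names of Nup and a number were used. Left out were, among others, Pom121 (0.30, called higher), and Tpr and Ranbp2, which were not called. The points share their libraries and their depth, so these are descriptions. Pearson's r was -0.73 in the first batch alone, -0.68 in the second alone, -0.74 without the library labelled 25 mM replicate 8 and -0.68 without the 5 cultures, and in each of these fits all 7 nucleoporins with a number over 150 were negative. For RNA without the 5 libraries that stood apart, r over 19 nucleoporins was 0.09, and with all RNA libraries it was -0.25. Protein mass and coding length were not analysed here, and the number need not match the full product of the reading frame.

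**Figure D3:**
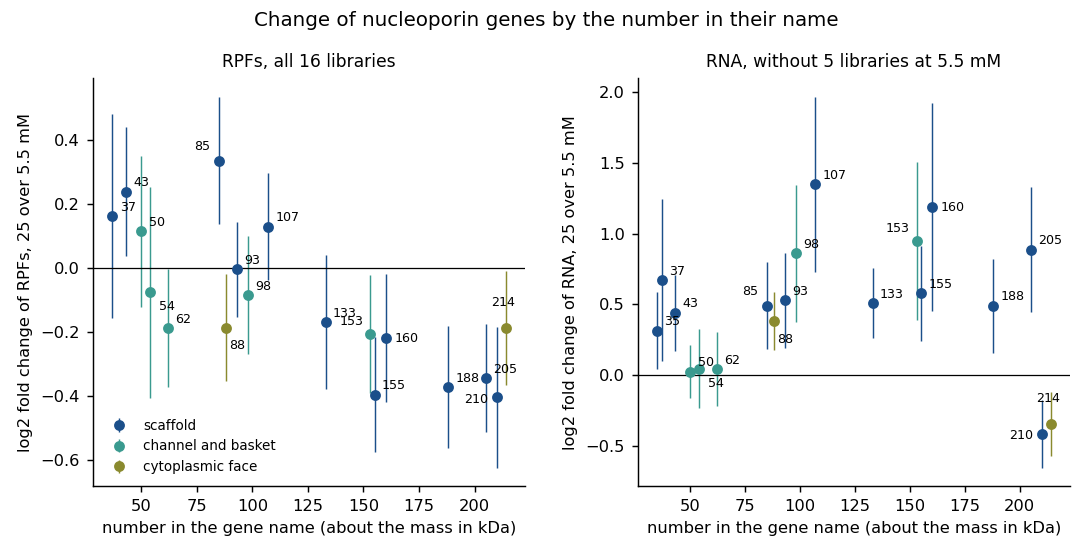
Log2 fold change at 25 over 5.5 mM (y axis, bars for 95% confidence intervals) of nucleoporin genes against the number in the gene name (x axis), for RPFs in all 16 libraries (left) and for RNA without the 5 libraries at 5.5 mM that stood apart (right), colored by role. In RPFs all 7 genes numbered over 150 lie below 0, and in RNA 2 of those 7 do.

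At the start of the genes, RefSeq promoters (250 bases before to 50 after the start, GRCm38.p6) were matched for 35 of the 42 genes and searched on both strands for 5 sets of letters. The core of ETS factors, CCGGAAGT, was found in 8 of 35 (22.9%), against 9.34% of the 9751 genes with a promoter that were tested in RNA and 4.31% of all 27025 genes. The letters of NRF1, GCGCATGC, were found in 4 (11.4%, against 6.21% and 3.05%). CCAAT was found in 40.0% (against 43.5% and 41.1%), the E-box CACGTG in 11.4% (against 11.7% and 8.09%) and TATAAA in 11.4% (against 8.04% and 15.7%). Of the 8 genes with the ETS letters, 3 had fewer RPFs at 25 mM and 0 had more, and of the other 25 with a promoter and an RPF test 4 had fewer and 1 had more. Nup85, Nup43 and Thoc3, which had more RPFs, had no matched promoter and are missing from this split. Over all genes tested in RPFs, 15.4% were called lower and 15.5% higher. These shares were not computed by the ETS letters, so the split links no letters to a change. The promoters of an inner ring gene and of the TREX-2 scaffold, both with fewer RPFs at 25 mM, are shown, with the ETS letters in capitals. That of Nup155 lies on the plus strand at chr15:8109063-8109362 and that of Mcm3ap on the plus strand at chr10:76468652-76468951.
Nup155: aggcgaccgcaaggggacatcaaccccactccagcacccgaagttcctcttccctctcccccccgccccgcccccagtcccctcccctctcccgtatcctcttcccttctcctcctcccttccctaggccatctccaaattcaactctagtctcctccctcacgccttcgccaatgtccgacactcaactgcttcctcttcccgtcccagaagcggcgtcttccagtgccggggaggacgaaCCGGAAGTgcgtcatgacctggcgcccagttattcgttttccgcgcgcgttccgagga
Mcm3ap: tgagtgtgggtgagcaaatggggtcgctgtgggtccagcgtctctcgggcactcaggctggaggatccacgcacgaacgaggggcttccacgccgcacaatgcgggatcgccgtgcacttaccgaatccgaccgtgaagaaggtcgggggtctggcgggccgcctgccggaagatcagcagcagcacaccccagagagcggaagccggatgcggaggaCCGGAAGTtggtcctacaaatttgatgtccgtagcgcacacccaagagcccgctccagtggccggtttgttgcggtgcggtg
A match of letters is a description and says nothing on its own of a factor's binding.

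RNA levels of pore and export genes moved mostly upward at 25 mM. Of 41 genes tested, RNA of 15 was higher and that of 4 was lower (adjusted p under 0.01 by edgeR's quasi-likelihood test), against 16.4% higher and 24.2% lower among all 12365 genes tested. The scaffold held 10 of the 15: 5 Y complex genes (Nup107, Nup160, Nup85, Nup133, Seh1l), 3 inner ring genes (Nup205, Nup155, Nup188), Ndc1 and Pom121. The others were the channel nucleoporin Nup98, the TREX subunits Thoc7 and Thoc1, and both Ddx19 genes. The 4 lower were Nup210l, Thoc2, Tpr and Mcm3ap. Much of this rested on the 5 RNA libraries at 5.5 mM that stood apart. Without them, 7 of 41 genes were higher (Pom121, Ddx19b, Nup107, Nup205, Ndc1, Ddx19a, Nup133) and 2 lower (Nup210l, Thoc2), with a background of 10.4% and 19.2%. Only 3 libraries then remained at 5.5 mM.

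**Figure D4:**
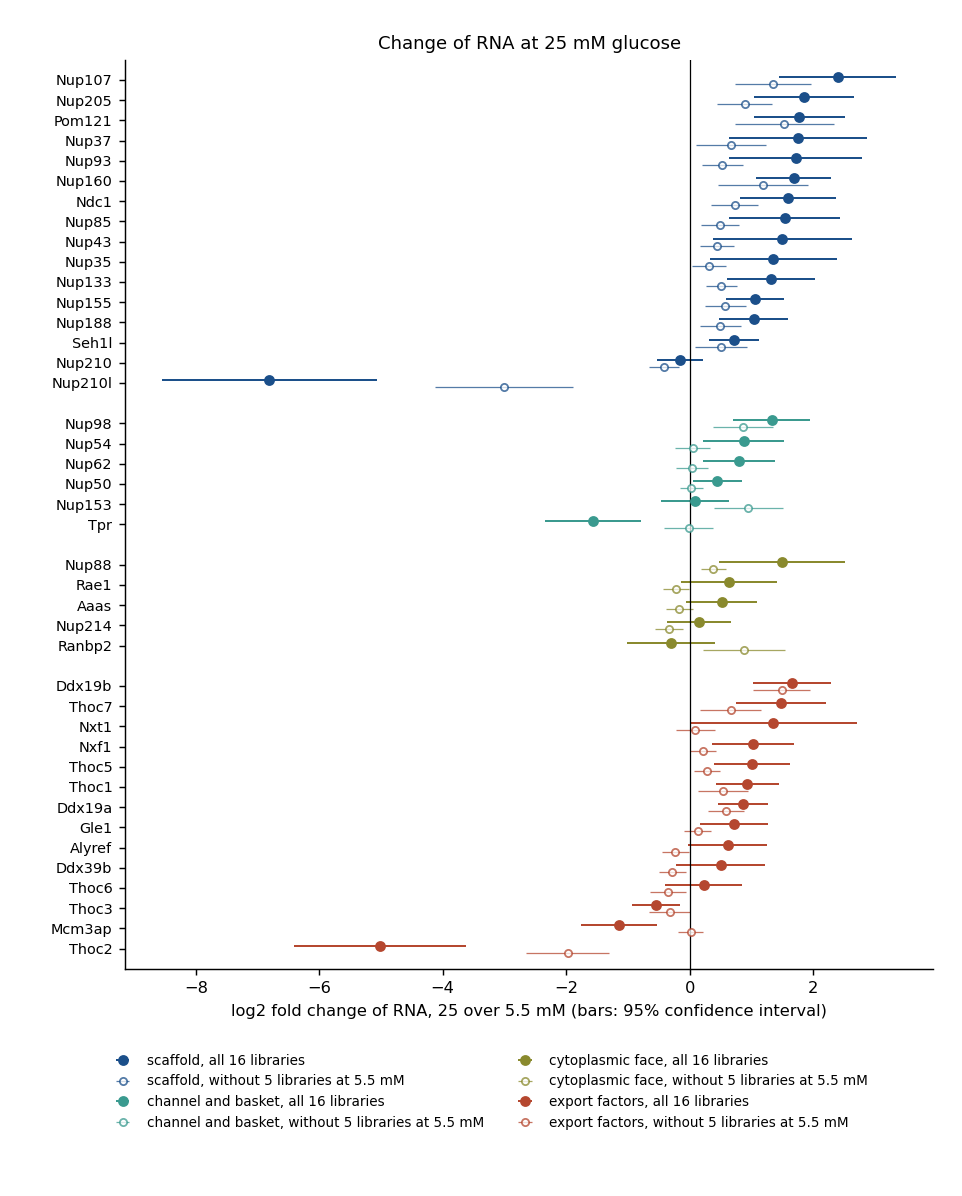
Log2 fold change of RNA at 25 over 5.5 mM (x axis) for each gene tested, grouped by role, with filled points for the fit to all 16 libraries, open points for the fit without the 5 RNA libraries at 5.5 mM that stood apart, and bars for 95% confidence intervals taken as normal from the SE. Most open points lie closer to 0 than the filled ones, and Nup210l and Thoc2 lie far to the left in both fits.

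Nup107, a core member of the Y complex, had the largest RNA increase of the set. Its RNA ranged from 52.5 to 64.8 CPM (median 58.1) at 25 mM and from 1.85 to 39.5 CPM (median 6.35) at 5.5 mM, so the groups did not overlap. At 5.5 mM, the 5 libraries that stood apart had 1.85 to 6.96 CPM and the other 3 had 10.5 to 39.5 CPM. The change was 2.40 (SE 0.48, adjusted p = 6.4e-04), and 1.35 (SE 0.32, adjusted p = 0.0053) without the 5. Pom121 had 62.8 to 84.2 CPM (median 73.2) at 25 mM, against 5.97 to 59.5 CPM (median 19) at 5.5 mM, again without overlap, with a change of 1.78 (SE 0.37, adjusted p = 8.8e-04) that was 1.54 (SE 0.41, adjusted p = 0.0099) without the 5. In this gene the levels of the 5 (5.97 to 26.6 CPM) overlapped those of the other 3 (7.23 to 59.5 CPM). Pom121 and Nup85 were the 2 genes called higher in both RNA and RPFs with all libraries used, and Nup85 RNA was not called without the 5 (0.49, SE 0.16, adjusted p = 0.021).

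The 3 inner ring genes with fewer RPFs at 25 mM had more RNA there when all libraries were used. Nup205 RNA ranged from 69.5 to 80.5 CPM (median 74.8) at 25 mM and from 7.04 to 62.3 CPM (median 12.8) at 5.5 mM, with a change of 1.84 (SE 0.41, adjusted p = 0.0014), and of 0.89 (SE 0.22, adjusted p = 0.0076) without the 5 libraries. Nup155 ranged from 47.8 to 74.9 CPM (median 59.3) at 25 mM and from 14.5 to 49.7 CPM (median 28.8) at 5.5 mM. Its change of 1.06 (SE 0.24, adjusted p = 0.0014) was 0.58 (SE 0.17, adjusted p = 0.015) without the 5 and then not called. Nup188, with 33.6 to 43.0 CPM (median 40.3) at 25 mM, against 6.30 to 38.7 CPM (median 15.8) at 5.5 mM, likewise had 1.04 (SE 0.28, adjusted p = 0.0055), and 0.49 (adjusted p = 0.029), not called, without the 5. Of the 8 libraries at 25 mM, all in Nup205, 7 in Nup155 and 5 in Nup188 were above every library at 5.5 mM. Nup160, in the Y complex, had 40.5 to 57.1 CPM (median 49.1) at 25 mM, against 7.59 to 40.5 CPM (median 11.8) at 5.5 mM, with a change of 1.69 (SE 0.31, adjusted p = 3.1e-04) that was 1.19 (SE 0.37, adjusted p = 0.020), not called, without the 5. Nup210 was the exception among the large scaffold genes, with 33.2 to 50.6 RNA CPM (median 45.8) at 25 mM, against 26.7 to 66.6 CPM (median 48.8) at 5.5 mM (-0.16, SE 0.19, adjusted p = 0.47), and a change of -0.41 (SE 0.12, adjusted p = 0.016), not called, without the 5.

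The Ddx19 helicases, which release the export receptor at the cytoplasmic face, had more RNA at 25 mM with and without the 5 libraries. Ddx19b ranged from 15.6 to 20.3 CPM (median 17.0) at 25 mM and from 1.09 to 10.3 CPM (median 5.23) at 5.5 mM, and Ddx19a from 40.6 to 45.5 CPM (median 42.2) at 25 mM and from 10.8 to 37.5 CPM (median 24.7) at 5.5 mM. In both genes, all 8 libraries at 25 mM were above all 8 at 5.5 mM. The same held for RNA of Nup133, Nup107, Nup205, Ndc1, Pom121, Nup98, Nup88 and Thoc5, and the share over all genes was not computed. The change of Ddx19b was 1.66 (SE 0.33, adjusted p = 5.2e-04), and 1.49 (SE 0.24, adjusted p = 9.5e-04) without the 5 libraries. That of Ddx19a was 0.86 (SE 0.21, adjusted p = 0.0025), and 0.59 (SE 0.15, adjusted p = 0.0072) without them. The 2 genes are near-identical in sequence, so how reads were shared between them is uncertain. In RPFs, Ddx19a had 25.9 to 47.0 CPM at 25 mM, against 27.7 to 53.0 CPM at 5.5 mM (-0.24, SE 0.12, adjusted p = 0.15). Ddx19b, with 152 RPF counts in all at 25 mM and 132 at 5.5 mM, did not pass the filter with all libraries, and without the library labelled 25 mM replicate 8 its change was 0.66 (SE 0.23, adjusted p = 0.035).

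Thoc2 and Nup210l had the 2 largest RNA changes of the set, both downward. Thoc2 RNA ranged from 53.8 to 125 CPM (median 71.4) at 25 mM. At 5.5 mM it ranged from 2433 to 6179 CPM in the 5 libraries that stood apart and from 72.5 to 885 CPM in the other 3. The change was -5.02 (SE 0.71, adjusted p = 6.9e-05), and -1.98 (SE 0.34, adjusted p = 0.0013) without the 5. Its RPFs, at 80.6 to 193 CPM at 25 mM, against 101 to 188 CPM at 5.5 mM, spanned a narrower range. How reads were shared with a retrocopy of Thoc2 is uncertain. Nup210l, a paralog of Nup210 best known from the testis, had 0.510 to 0.868 RNA CPM at 25 mM, 91.0 to 149 CPM in the 5 libraries and 0.840 to 15.7 CPM in the other 3, with 7 and 6 RPF counts in all at 25 and 5.5 mM. Its change was -6.81 (SE 0.89, adjusted p = 6.4e-05), and -3.01 (SE 0.57, adjusted p = 0.0019) without the 5. In both genes the 3 remaining libraries at 5.5 mM were themselves spread widely, with replicate 5 at 885 CPM of Thoc2 and 15.7 CPM of Nup210l.

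**Figure D5:**
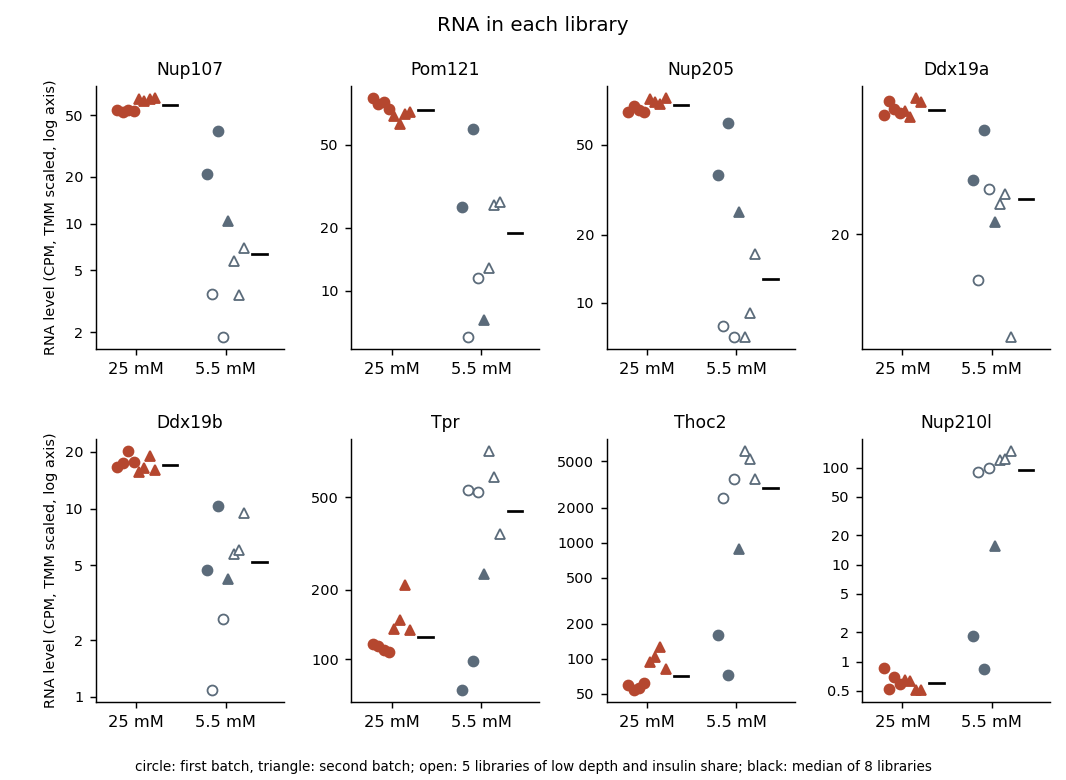
RNA level in CPM after TMM scaling (y axis, log scale) of 8 genes in each library at 25 mM (left) and 5.5 mM (right), with circles for the first batch, triangles for the second, open symbols for the 5 libraries at 5.5 mM that stood apart, and black lines for the median of 8 libraries. Nup107, Pom121, Nup205, Ddx19a and Ddx19b are higher in every 25 mM library than in any 5.5 mM library, and the open symbols of Tpr, Thoc2 and Nup210l lie highest.

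Tpr, the main protein of the basket, was likewise highest in the 5 libraries. Its RNA ranged from 107 to 209.7 CPM (median 125) at 25 mM, from 346 to 793 CPM in the 5 and from 73.8 to 234 CPM in the other 3. The change was -1.56 (SE 0.39, adjusted p = 0.0032), and -0.02 (SE 0.20, adjusted p = 0.95) without the 5. Mcm3ap RNA ranged from 30.9 to 35.6 CPM (median 33.9) at 25 mM, from 43.4 to 135 CPM in the 5 and from 31.0 to 36.1 CPM in the other 3, with a change of -1.14 (SE 0.31, adjusted p = 0.0053) that was 0.01 (SE 0.10, adjusted p = 0.91) without the 5. Low depth and a low insulin share moved with these levels, and their part was not tested.

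By class, RNA of the scaffold had a median change of 1.52, against 0.79 for the export factors and 0.12 for all genes tested. Without the 5 libraries these were 0.52, 0.11 and 0.00. Summed over the scaffold, RNA was 787 to 863 CPM at 25 mM, 250 to 432 CPM in the 5 libraries and 401 to 736 CPM in the other 3. The export factors without Thoc2 summed to 646 to 692 CPM at 25 mM, 334 to 505 CPM in the 5 and 626 to 751 CPM in the other 3. The difference between the classes was not tested. The sign of the scaffold median did not depend on scaling, at 1.47 with DESeq2 size factors and 1.93 with library size, although library size moved the median of all genes to 0.82. Within the first batch, 0 of 41 genes were called in RNA by edgeR (3 higher and 2 lower at an unadjusted p under 0.05), as were 0 of all 12470 genes tested there (0.00% in each direction), and DESeq2 was not run within a batch. The median of the scaffold was 1.04 in that batch and 1.96 in the second, which gave 17 genes higher and 5 lower, with a background of 16.8% and 20.0%.

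The TE test asked whether the glucose effect differed between RPFs and RNA, for the 38 genes with enough counts in both. TE was lower at 25 mM for 22 genes and higher for 4 (adjusted p under 0.1), against 28.6% lower and 31.2% higher among all 8637 genes tested. TE shares its RNA libraries with the RNA comparison, so the 2 are not independent. The scaffold held 13 of the 22 from 14 tested, with Nup210 the exception (-0.14, SE 0.22, adjusted p = 0.60), and a median change of -1.37. The export factors had 5 lower, 3 higher and a median of -0.47 over 13 genes, and the median of all genes was -0.10. Without the 6 libraries that stood apart, 18 of 39 genes were lower and 3 higher, with a background of 26.3% and 27.4%. The medians were then -0.60 for the scaffold, with 9 of 14 lower, and -0.03 for the export factors. In the first batch alone, 0 of 39 genes were lower by edgeR (6 at an unadjusted p under 0.05) and 1 was higher, with a background of 0.233% and 8.05%. In the second alone 19 of 36 were lower and 4 higher, with a background of 29.1% and 27.3%. Scaling by library size gave 29 lower and 1 higher, with a background of 48.7% and 13.3%, and a median of all genes of -0.91.

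The inner ring had lower TE in all 4 genes tested, both with and without the 6 libraries. Nup205 had a log2 TE of 1.69 to 2.13 (median 1.78) in the 25 mM cultures and 2.20 to 5.46 (median 4.74) in those at 5.5 mM, with no overlap. The change was -2.10 (SE 0.42, adjusted p = 1.8e-04), and -1.23 (SE 0.20, adjusted p = 1.6e-04) without the 6 libraries. Nup155 had a log2 TE of 1.08 to 1.96 (median 1.66) at 25 mM and 2.02 to 4.05 (median 2.94) at 5.5 mM, again with no overlap, and changes of -1.38 (SE 0.25, adjusted p = 6.8e-05) and, without the 6, -0.97 (SE 0.17, adjusted p = 2.8e-04). Nup188 had changes of -1.31 (SE 0.29, adjusted p = 6.3e-04) and -0.85 (SE 0.18, adjusted p = 9.4e-04), and Nup93 of -1.62 (SE 0.55, adjusted p = 0.015) and -0.46 (SE 0.16, adjusted p = 0.024). Nup107, of the Y complex, had a TE change of -2.16 (SE 0.47, adjusted p = 4.4e-04), and -1.15 (SE 0.26, adjusted p = 0.0019) without the 6. Its RPFs were not called.

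On the export side, TE of Thoc3 and Thoc2 was higher at 25 mM. Thoc3 had a log2 TE of -0.64 to 0.38 at 25 mM and -2.38 to 0.00 at 5.5 mM, with a change of 1.29 (SE 0.25, adjusted p = 1.4e-04) that was 1.03 (SE 0.23, adjusted p = 0.0014) without the 6 libraries. Its RNA was not called (-0.54, SE 0.20, adjusted p = 0.025, and -0.32, adjusted p = 0.12, without the 5 RNA libraries). Thoc2 had 4.72 (SE 0.67, adjusted p = 7.5e-06) and 1.51 (SE 0.36, adjusted p = 0.0023) without the 6, and the value with all libraries carries the RNA levels of the 5. Ddx19a had lower TE in both fits (-1.0, SE 0.23, adjusted p = 8.0e-04, and -0.79, SE 0.18, adjusted p = 0.0018). The TE call of Tpr (1.59, SE 0.41, adjusted p = 0.0024) was lost without the 6 libraries (-0.02, adjusted p = 0.94), and that of Mcm3ap (0.86, SE 0.35, adjusted p = 0.037) turned to -0.35 (SE 0.16, adjusted p = 0.082), which was called lower.

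Around these genes, 64 further nuclear transport genes were listed: the Ran cycle, exportins, importins, other pore proteins, and partners of TREX, the cap and the exon junction. In RPFs, 8 of 55 tested were higher and 1 lower, against 15.5% and 15.4% of all genes, with a median change of 0.00, and without the library labelled 25 mM replicate 8 the counts were 8 and 6 of 56, against 17.6% and 17.0%. The 3 with the smallest p were Sec13, a Y complex member shared with the coat of ER vesicles (0.76, SE 0.12, adjusted p = 4.9e-05), Sem1, a small subunit of TREX-2 and the proteasome (0.71, SE 0.15, adjusted p = 0.0014), and Xpot, the exportin of tRNA (-0.51, SE 0.13, adjusted p = 0.0058). In RNA, 17 of 59 were higher and 11 lower, against 16.4% and 24.2% of all genes, and 7 and 4 without the 5 libraries, against 10.4% and 19.2%. Acin1 (-4.48, SE 0.69) and Rbm8a (-3.25, SE 0.52), both of the exon junction complex or its associates, fell and the exportin Xpo7 (1.37, SE 0.23) rose (adjusted p = 9.7e-05, 1.2e-04 and 1.6e-04), with changes of -1.36, -0.97 and 1.12 without the 5 libraries, of which that of Xpo7 was then not called (adjusted p = 0.011). In TE, 25 of 55 were lower and 13 higher, against 28.6% and 31.2% of all genes, and 19 and 11 of 56 without the 6 libraries, against 26.3% and 27.4%. The smallest p were those of Acin1 (4.50, SE 0.64), Rangap1 (3.46, SE 0.55), which drives Ran's GTP hydrolysis, and Pcid2 (1.57, SE 0.27), a TREX-2 subunit. Without the 6 libraries the TE changes of Acin1, Rangap1 and Pcid2 were 1.29, 0.87 and 0.89.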

How the data were processed

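Per the deposited tables and the study's methods, the authors trimmed reads, removed ribosomal RNA alignments and PCR duplicates, aligned to the mouse genome (Ensembl release 102) with the XPRESSyourself pipeline and counted reads per protein-coding gene on exons or truncated coding sequences, so the deposited values are raw counts. Versions, and whether counting used strand, are not given in the sources used here. Gene symbols were found for 21826 of 21945 identifiers.

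RNA and RPF tables were TMM-scaled separately, filtered with filterByExpr and tested with edgeR 4.0.16 (quasi-likelihood, batch as covariate, Benjamini-Hochberg over all genes). DESeq2 1.42.0 and limma 3.58.1 served the alternatives, under R 4.3.3, with Python 3.11.15, pandas 2.3.3 and matplotlib 3.10.9. TE was a term for the difference between the glucose effects of RPFs and RNA, in 1 model of all 32 libraries over genes that passed the filter in both, each library type TMM-scaled over those genes. This model did not link the RPF and RNA library of the same culture, so its p ignores that pairing. Culture was a block only among the alternatives. Calls are under 0.01 for RNA and 0.1 for RPFs and TE. The SE came from the F statistic. Levels are CPM after TMM, and log2 TE per culture used a pseudocount of 0.5 CPM. The tests were tried on simulated counts with a single dispersion and no batch or composition differences between libraries. That trial did not cover libraries such as those that stood apart.

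The 8 replicates per group are labelled as biological replicates, and the smallest chi-square per degree of freedom between 2 libraries of a group was 4.38 in RNA and 1.59 in RPFs, so none was a duplicate. The members, role groups, lists and left-out libraries were chosen with earlier results of these data known. Full values are given for the 14 genes with the 8 smallest p or the extreme change of a layer, or in a paralog pair. The alternatives changed the scaling (library size, or size factors of DESeq2), the filter, the batch term, the block (replicate or culture), the libraries (1 replicate number out, 1 batch only) or the tool (DESeq2's Wald test, limma with 0.5 or 0.1 CPM added). The study's proteomics, polysome and islet data are not analysed here.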

Additional observations from a re-analysis of the deposited data

Results flagged for a closer look

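Of 36 groups of 8 libraries examined for 1 library far from the rest, 7 were marked, and chance would mark about 5% of groups. In the RPF library labelled 25 mM replicate 8, the summed scaffold level was 2135 CPM (1789 to 1852 CPM in the other 7), Nup205 was 358 CPM (247 to 282 CPM), Nup210 was 197 CPM (115 to 148 CPM) and Nup160 was 195 CPM (113 to 151 CPM), each the highest of its group. In the 25 mM RPF library of replicate 7, Nup85 was 186 CPM (134 to 155 CPM in the other 7) and the summed level of the export factors was 925 CPM (1042 to 1145 CPM). In the 5.5 mM RPF library of replicate 7, the summed level of the export factors was also the lowest, at 959 CPM (1102 to 1213 CPM).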

How the results depend on the processing

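Leaving out the 5 RNA libraries changed the RNA counts of 15 higher and 4 lower genes to 7 and 2 and the RNA medians to 0.52 for the scaffold and 0.11 for the export factors. The first batch alone gave 0 and 0 in RNA (3 and 2 at an unadjusted p under 0.05), 2 higher in RPFs, and 1 higher and 0 lower in TE by edgeR (2 and 6 at an unadjusted p under 0.05). The second batch alone gave 1 higher and 1 lower in RPFs. Leaving out the 5 cultures gave 0 and 0 in RPFs, with 1 and 4 at an unadjusted p under 0.05. Library size scaling gave 11 higher and 2 lower genes in RNA, 12 lower in RPFs and 1 higher in TE, and medians of the export factors of 1.40 in RNA and -1.08 in TE. Over all 12365 genes tested in RNA, 2175 were then higher and 1342 lower, against 2032 and 2998 in the main fit. The TE median of the scaffold was -0.60 without the 6 libraries and -0.58 without the 5 cultures and the RPF library labelled 25 mM replicate 8. With 1 replicate number left out in turn, 8 to 20 genes were called higher and 2 to 5 lower in RNA, 2 to 5 and 5 to 9 in RPFs, and 3 to 4 and 18 to 24 in TE. Over all genes, 1024 to 2719 were higher and 2360 to 3147 lower in RNA (12333 to 12396 tested). They were 973 to 1507 and 876 to 1593 in RPFs (7778 to 9295 tested), and 2210 to 2887 and 1933 to 2676 in TE (7720 to 9206 tested). In these fits 10 of 19 pore and export genes called in RNA, 7 of 11 in RPFs and 20 of 26 in TE were called every time. The matching shares over all genes were not computed. Same-numbered deviations correlated at -0.16 to 0.15 in RNA. In RPFs all were above 0, at 0.15 to 0.47 for replicates 1 to 4 and 0.01 to 0.08 for replicates 5 to 8. Different-numbered libraries were not compared, so whether the numbers pair the RPF libraries was not settled. The main fits did not pair them. With the replicate block, 15 and 2 genes were called higher and lower in RNA, 4 and 9 in RPFs and 3 and 23 in TE. Over all genes that block gave 2111 and 1906 of 12365 in RNA, 1499 and 1539 of 8709 in RPFs, and 2341 and 3033 of 8637 in TE. DESeq2's Wald test called 22 and 5 in RNA, 3 and 6 in RPFs and 4 and 21 in TE. Over all genes it called 2893 and 3882 of 12365 in RNA, 1363 and 1252 of 8709 in RPFs, and 3092 and 2332 of 8637 in TE. Of 706 values of the 14 fully described genes under the alternatives, 612 stayed on the same side of the threshold. A call was lost in 82 and gained in 8, and 4 values of called changes reversed direction. The 612 include changes not called in either fit whose sign differed. Under library size scaling, the RNA change of Thoc3 went from -0.54 to 0.30 and that of Nup210 from -0.16 to 0.53. The 4 counted as reversed were all of Mcm3ap: 0.014 in RNA without the 5 libraries, and in TE -0.35 without the 6 libraries, -0.15 without the 5 cultures and the RPF library, and -0.36 under library size scaling. The cause was not tested. RPF depth limited Nup35, Nup210l and Ddx19b.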
